A study of Homo sapiens with 6 samples.

Results

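Krüppel-like factor (KLF) genes were followed in MCF10A cells given a miR-221/222 mimic. Of the family, 10 genes are described: KLF2, KLF3, KLF4, KLF5, KLF6, KLF7, KLF9, KLF10, KLF11 and KLF13. They were read at the 32 probe sets whose annotated symbol is one of these names, out of 54613 probe sets and 19775 named genes. None of the 32 probe sets listed a further gene. The 10 genes were chosen from the family on the mimic minus control differences of these same arrays, which were already known. Their differences and limma calls, also those under other settings, are therefore a description, and no evidence about the family is drawn from them.

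MCF10A cells are an immortal line of human breast epithelium that does not form tumours. Cells of one group received the mimic and cells of the other a control microRNA, with 3 biological replicates each. Total RNA from every replicate was hybridised to its own single-colour array, and the unit is the log2 intensity of a probe set. All results come from 1 cell line, and neither the amount of mimic, the hours until harvest nor the control's sequence was stated in the sources used here. A difference of 1 on this scale is 2-fold, and no detection calls were used, so it is not known which low values lie above background.

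KLF proteins are transcription factors that bind GC-rich and CACCC-type DNA through zinc fingers at their C-terminal end. KLF2, KLF4, KLF5, KLF6 and KLF7 act largely as activators that recruit acetyltransferases, KLF3 represses through CtBP proteins, and KLF9, KLF10, KLF11 and KLF13 bind the corepressor SIN3A. In epithelia the family is known for its part in the balance between proliferation and differentiation, and several members respond quickly to growth factors, TGF-beta or steroid hormones.

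The sequences of miR-221-3p and miR-222-3p are shown because the mimic is named after miR-221 and miR-222. The sample titles give neither the mimic's sequence nor its form, so the 3p form is assumed here. Both are encoded on the minus strand of the X chromosome (GRCh38.p14, RefSeq), miR-221-3p at chrX:45746180-45746202 and miR-222-3p at chrX:45747036-45747056. Capitals mark the seed, bases 2 to 8, which is the stretch that does most of the pairing with messenger RNAs and is the same in both. Whether the transcripts of the KLF genes hold a match to the seed was not tested.
hsa-miR-221-3p: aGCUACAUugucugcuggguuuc
hsa-miR-222-3p: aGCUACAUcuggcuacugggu

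RefSeq start-site windows (GRCh38.p14, 250 bases before to 50 after the start) were matched for 8 of the 10 genes, 13 windows in all. They are shown for KLF4 and KLF6, whose probe sets all differed by a similar amount, and for KLF2 and KLF11, which hold less common motifs. Capitals mark matches on either strand to the GC box GGGCGG, the CACCC box CACCC, the cAMP response element TGACGTCA and an AT-rich element of the MEF2 type, TAAATTTA.
KLF4, chr9:107489720-107490019, minus strand: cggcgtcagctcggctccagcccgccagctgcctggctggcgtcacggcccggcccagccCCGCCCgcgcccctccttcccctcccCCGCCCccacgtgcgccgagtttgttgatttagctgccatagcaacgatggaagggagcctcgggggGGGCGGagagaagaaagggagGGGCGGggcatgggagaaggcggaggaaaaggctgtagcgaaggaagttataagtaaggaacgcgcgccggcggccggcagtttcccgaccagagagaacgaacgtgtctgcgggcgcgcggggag
KLF6, chr10:3785160-3785459, minus strand: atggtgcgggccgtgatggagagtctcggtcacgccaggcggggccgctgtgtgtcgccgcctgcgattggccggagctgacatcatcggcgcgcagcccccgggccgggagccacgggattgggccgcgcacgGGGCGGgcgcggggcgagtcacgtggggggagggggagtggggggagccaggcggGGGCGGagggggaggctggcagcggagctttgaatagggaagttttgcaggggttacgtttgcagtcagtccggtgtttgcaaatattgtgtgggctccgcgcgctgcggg
KLF2, chr19:16324576-16324875, plus strand: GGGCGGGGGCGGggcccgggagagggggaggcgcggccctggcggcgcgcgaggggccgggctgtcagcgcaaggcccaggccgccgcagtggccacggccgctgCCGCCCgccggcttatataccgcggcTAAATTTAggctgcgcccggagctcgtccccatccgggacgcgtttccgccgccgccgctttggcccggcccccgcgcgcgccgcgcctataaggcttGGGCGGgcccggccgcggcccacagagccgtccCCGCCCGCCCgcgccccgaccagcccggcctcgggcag
KLF11, the second of its 2 windows, chr2:10043971-10044270, plus strand: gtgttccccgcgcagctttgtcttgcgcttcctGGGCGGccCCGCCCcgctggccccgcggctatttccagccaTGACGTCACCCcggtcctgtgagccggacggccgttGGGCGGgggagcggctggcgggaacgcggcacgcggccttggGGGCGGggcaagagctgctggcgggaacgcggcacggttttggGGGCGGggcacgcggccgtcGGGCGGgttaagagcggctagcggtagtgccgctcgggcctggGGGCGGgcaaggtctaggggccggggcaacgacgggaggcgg

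A GC box was present in 8 of the 13 windows, belonging to 7 genes, and in 45.0% of all 35116 windows in the table. The KLF4 window held 4 GC boxes, the KLF6 window 2, the KLF2 window 6 and this KLF11 window 7. A CACCC box was present in 7 of the 13 windows and in 59.9% of all windows. The cAMP response element was found in 1 member window, that of KLF11, where it overlaps the CACCC box, and in 1.85% of all windows. The MEF2-type element was found in 1 member window, that of KLF2, and in 0.57% of all windows. These matches describe the letters of the windows and do not show binding.

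The arrays were close to each other within groups. Array medians lay between 7.59 and 7.66, and over all probe sets pairs of arrays correlated with r of 0.9953 to 0.998 within groups and of 0.9821 to 0.9858 between groups (probe sets are not independent replicates). As a measure of RNA integrity, the 3' minus 5' log2 signal of ACTB was 0.334 to 0.387 in mimic arrays and 0.291 to 0.36 in control arrays, which overlap. That of GAPDH was 0.024 to 0.042 in mimic arrays and -0.046 to 0.023 in control arrays, every mimic array above every control array, and its part in the KLF values was not tested. All 8 measured basal epithelial markers, KRT5 and KRT14 among them, averaged above the median probe set level of 7.62. Of these markers, 7 were called lower and 1, LAMB3, higher, and their summed linear intensity was 20470 to 22139 in mimic arrays against 47619 to 49462 in control arrays. Among markers of other cells, 0 of 8 endothelial genes rose and 1 (KDR) fell, 1 of 6 measured blood genes rose (ITGAM) and 1 fell (CD14), and 1 of 8 fibroblast genes rose (DCN) and 2 fell (LUM and FAP). Beside all these marker counts, 14.1% of all genes were called higher and 16.3% lower. Summed intensities were 1982 to 2117 in mimic against 2256 to 2451 in control arrays for endothelial, 1701 to 1748 against 2157 to 2188 for blood, and 15599 to 16440 against 7491 to 7929 for fibroblast markers. The higher fibroblast sum came from DCN, with log2 means of 13.72 in mimic and 12.06 in control arrays. Of the other fibroblast markers, 2 were called lower and 5 were not called. Means below the median probe set level were found for 4 of the endothelial, 3 of the blood and 2 of the fibroblast markers. The part of any of these markers in the KLF values was not tested, and a lower share of one kind of cell and less RNA per cell cannot be told apart in bulk RNA.

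Most of the 10 genes had more signal in the mimic arrays, between 1.22-fold and 1.84-fold at the probe set of highest mean intensity. KLF7, KLF4 and KLF6 differed most, KLF3 and KLF9 came next, and KLF10, KLF11 and KLF13 differed least among those called. KLF5 and KLF2 were not called. In limma, with Benjamini-Hochberg adjustment over all probe sets and a threshold of 0.05, 8 of the 10 genes were called higher and 0 lower, where 14.1% of all genes were called higher and 16.3% lower. By probe set, 22 of 32 were called higher and 0 lower, beside 11.6% higher and 13.1% lower of all probe sets. The 3 mimic arrays lay wholly above the 3 control arrays at 24 of the 32 and wholly below at 1, where 20.9% of all probe sets lay above and 18.2% below. Nothing is read from these shares, because the genes were chosen with this contrast in view. The median difference of the 10 genes was 0.40 against 0.03 over all 19775 genes.

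**Figure D1:**
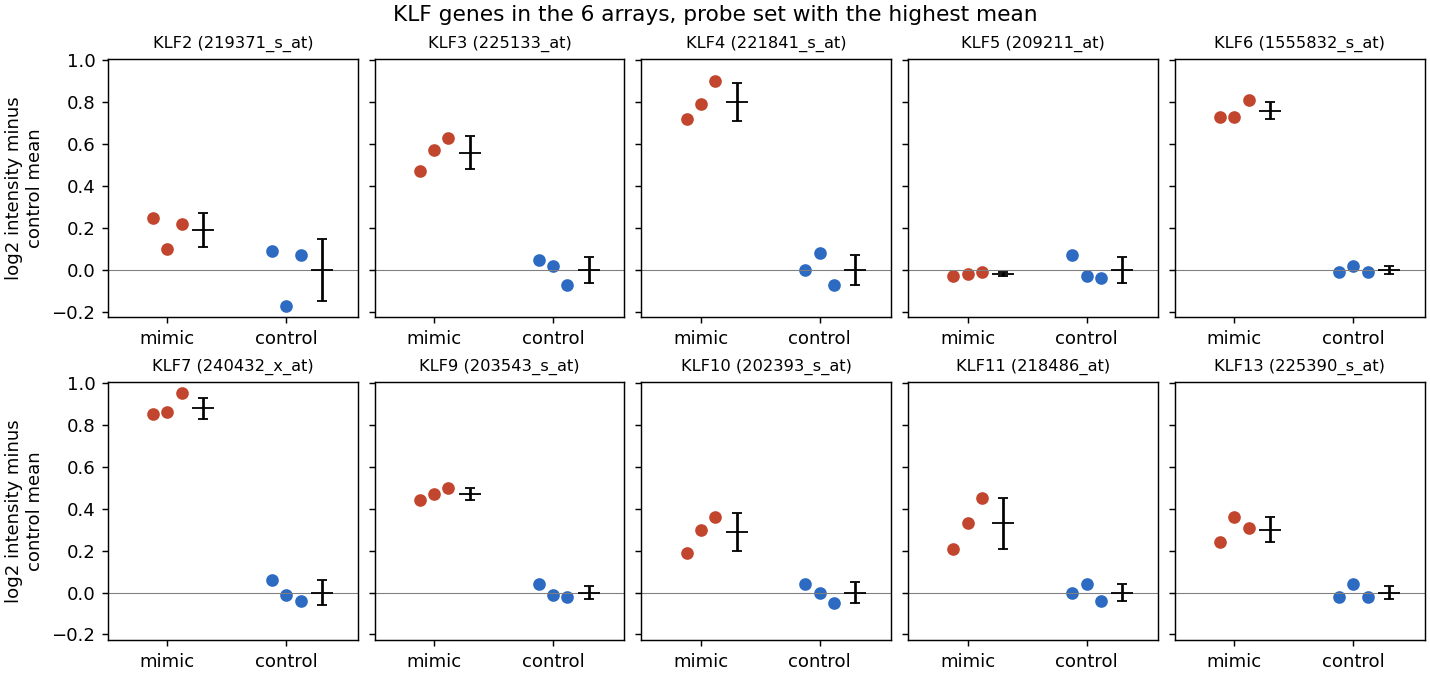
Log2 intensity of each array minus the control mean, for the 10 KLF genes at their brightest probe set (highest mean over all arrays). Points are arrays, and bars show the mean and SD of 3 arrays. The mimic points of KLF4, KLF6 and KLF7 lie highest above the control points, and those of KLF5 lie among them.

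The differences of the activators KLF4, KLF6 and KLF7 were alike in size at their brightest probe sets. KLF4, a reprogramming factor that also drives barrier formation in epithelia, read 12.28, 12.35 and 12.46 in mimic arrays against 11.56, 11.64 and 11.49 in control arrays. All mimic values exceed all control values, and the difference was 0.80 ± 0.07 (moderated SE), or 1.74-fold. Its other probe set had a difference of 0.82 ± 0.07 (SE), so both readings of KLF4 differed by nearly the same amount.

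KLF6, a widely expressed growth regulator, read 13.34, 13.34 and 13.42 in mimic arrays against 12.60, 12.63 and 12.60 in control arrays. The groups are well separated and the spread within each was small, with SDs of 0.04 and 0.02 (n = 3 each). The difference was 0.75 ± 0.06 (SE), or 1.69-fold. All 5 KLF6 probe sets were called higher, with differences from 0.67 to 0.80. The lowest of these came from the probe set with the widest control spread, at 9.54, 9.55 and 9.68 in mimic against 8.87, 8.75 and 9.14 in control arrays.

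KLF7, known for its part in neuronal outgrowth, read 10.05, 10.06 and 10.15 in mimic arrays against 9.26, 9.19 and 9.16 in control arrays. The difference of 0.88 ± 0.06 (SE), or 1.84-fold, was the highest of the 10 genes. This probe set carries the suffix x_at, which marks probes that can bind other transcripts. The other 4 KLF7 probe sets, without that suffix, were also called higher. One of them differed by 0.88 ± 0.07 (SE) as well, another by 0.67 ± 0.06, and the other two by 0.37 and 0.35. The size of the KLF7 difference thus varied between its probe sets, while the direction was the same at all 5.

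KLF2 and KLF5 stood apart from the other activators. KLF2, a regulator of endothelial and lymphocyte quiescence, read 8.03, 7.88 and 8.0 in mimic arrays against 7.87, 7.61 and 7.85 in control arrays. The groups touch without overlapping, and the difference of 0.19 ± 0.08 (SE) was not called over the whole table. The other KLF2 probe set differed by 0.09 ± 0.06 (SE) and was not called either. Both KLF2 probe sets lie near the median probe set level.

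KLF5, which promotes proliferation of basal epithelial cells, read 12.33, 12.34 and 12.35 in mimic arrays against 12.43, 12.33 and 12.32 in control arrays. These groups overlap, and the difference was -0.02 ± 0.06 (SE). The second KLF5 probe set read 11.30, 11.54 and 11.48 in mimic arrays against 11.70, 11.75 and 11.55 in control arrays. There all mimic values were lower than all control values, by -0.23 ± 0.08 (SE), without a call. This was the 1 probe set of the 32 with every mimic array below every control array. Over the 5 activators, 12 of 16 probe sets were called higher and 4, those of KLF2 and KLF5, were not called. Of all probe sets, 11.6% were called higher and 13.1% lower.

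**Figure D2:**
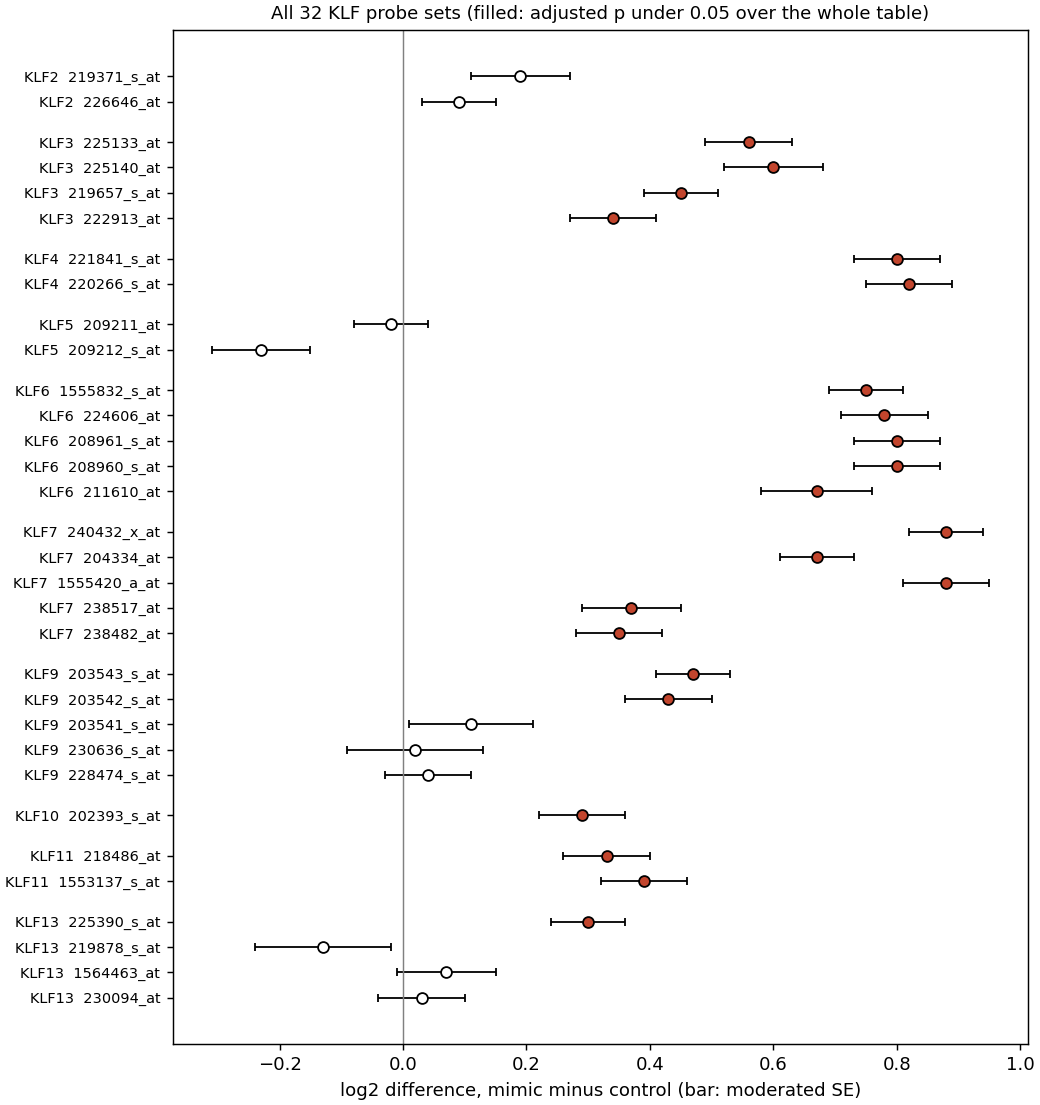
Log2 difference, mimic minus control, at each of the 32 KLF probe sets, with limma's moderated SE as bars. Filled points were called over the whole table: all probe sets of KLF3, KLF4, KLF6, KLF7, KLF10 and KLF11, some of KLF9 and KLF13, and none of KLF2 or KLF5.

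KLF3, the repressor that works through CtBP proteins, read 11.65, 11.75 and 11.81 in mimic arrays against 11.23, 11.20 and 11.11 in control arrays. The groups do not overlap, and the difference was 0.56 ± 0.07 (SE), or 1.47-fold. All 4 KLF3 probe sets were called higher, with differences from 0.34 to 0.60.

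The SIN3-binding members were less uniform. KLF9, a gene induced by glucocorticoids and thyroid hormone, read 10.55, 10.58 and 10.61 in mimic arrays against 10.15, 10.10 and 10.09 in control arrays. The difference was 0.47 ± 0.06 (SE), or 1.39-fold, with SDs of 0.03 in both groups. A second KLF9 probe set read 9.93, 9.93 and 9.98 in mimic against 9.48, 9.63 and 9.44 in control arrays, a difference of 0.43 ± 0.07 (SE). The groups are separate at both of these. The other 3 KLF9 probe sets, with control means from 6.45 to 7.18, had overlapping groups, differences of 0.11, 0.02 and 0.04, and no call.

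KLF13, which regulates the chemokine gene CCL5 in T cells, read 11.63, 11.75 and 11.70 in mimic arrays against 11.37, 11.43 and 11.37 in control arrays. The groups do not overlap at this probe set, where the difference was 0.30 ± 0.06 (SE), or 1.23-fold. The other 3 KLF13 probe sets had overlapping groups. One of them read 8.91, 9.33 and 9.09 in mimic arrays against 9.13, 9.41 and 9.18 in control arrays, a difference of -0.13 ± 0.11 (SE). The call on KLF13 therefore rests on 1 of its 4 probe sets, and with all 4 averaged the difference was 0.07 and was not called.

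**Figure D3:**
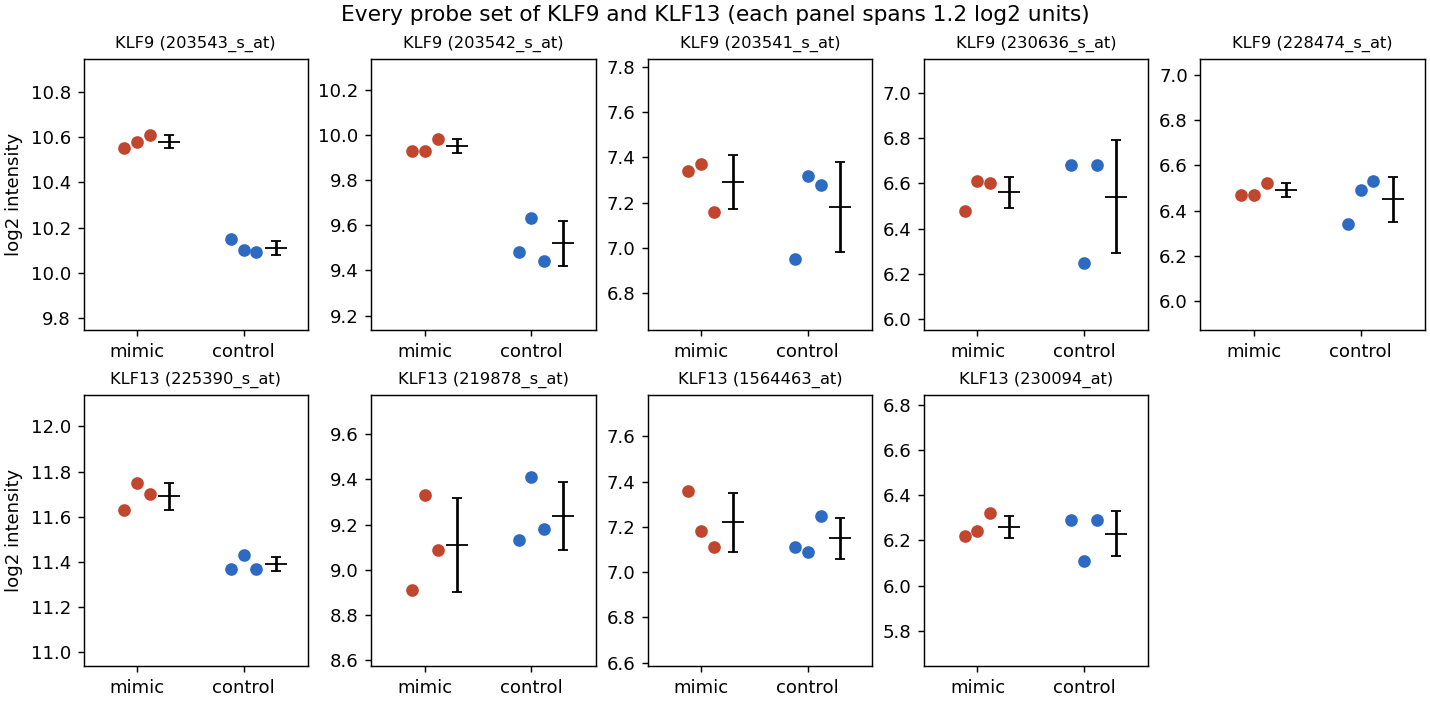
Log2 intensity in each array at the 5 probe sets of KLF9 and the 4 of KLF13, with mean and SD (n = 3) as bars. Mimic and control points separate at 2 KLF9 probe sets and at 1 KLF13 probe set, and overlap at the others.

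KLF10 and KLF11 are close relatives first known as TGF-beta-inducible early genes. KLF10 read 11.38, 11.49 and 11.55 in mimic arrays against 11.23, 11.19 and 11.14 in control arrays on its 1 probe set. The difference was 0.29 ± 0.07 (SE), or 1.22-fold, and the groups do not overlap. KLF11 read 9.55, 9.67 and 9.79 in mimic arrays against 9.34, 9.38 and 9.30 in control arrays, a difference of 0.33 ± 0.07 (SE). Its other probe set differed by 0.39 ± 0.07 (SE), so both were called higher. In all, 6 of the 12 probe sets of the SIN3-binding members were called higher and 6 were not called. The shares over all probe sets were 11.6% higher and 13.1% lower.

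Across the 32 probe sets, calls were fewer where values were low. Of the 7 probe sets with a mean below the median level of all probe sets, 1 was called, and of the 25 at or above it, 21 were called. The same split over the whole table gave 11.1% called below the median and 38.4% called at or above it. At the 10 probe sets read for the genes, mimic replicate 1 was the lowest mimic array for 8 genes and control replicate 3 the lowest control array for 7. Without either array, as without any other single array, 8 of the 10 genes were called higher.

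The rest of the family was compared next, as 15 measured genes of the KLF and SP groups that are not among the 10. Of these, 2 rose, 1 fell and 12 did not pass, with a median difference of 0.02 against 0.03 over all genes, of which 14.1% were called higher and 16.3% lower. The number that fell was 2 without mimic replicate 3, and 0 to 3 over all alternatives. The KLF genes among the 15 are those left when the 10 were chosen on these differences. Nothing is therefore read from their contrast with the 10. SP4, a relative of SP1 best known in neurons, averaged 9.65 ± 0.13 in mimic and 8.92 ± 0.06 in control arrays (SD, n = 3 each), 1.66-fold higher (limma adjusted p = 3.26e-05). The second SP4 probe set differed by 0.27 ± 0.11 (SE) and was not called. KLF15, a glucocorticoid-responsive metabolic regulator, averaged 10.21 ± 0.05 against 9.59 ± 0.05, 1.54-fold higher (limma adjusted p = 2.21e-05), but its second probe set differed by 0.03 ± 0.07 (SE). KLF8, which binds CtBP as KLF3 does and is repressed by KLF3 in mice, averaged 7.80 ± 0.15 against 8.26 ± 0.07, a difference of -0.46 ± 0.08 (SE, limma adjusted p = 0.00139), again on 1 of 2 probe sets. Over the 37 probe sets of these 15 genes, 3 were called higher and 3 lower, beside 11.6% higher and 13.1% lower of all probe sets.

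SP1, a broadly expressed activator that binds the same GC boxes, did not pass at the probe set read (-0.19 ± 0.07, SE, limma adjusted p = 0.0844). Every mimic array was lower than every control array at all 4 SP1 probe sets, with differences from -0.26 to -0.19, and 2 of the 4 passed (limma adjusted p of 0.0173 and 0.0167). KLF12, a further CtBP-binding member, had 8 probe sets, of which 1 passed (0.32 ± 0.09, SE, limma adjusted p = 0.0273). At the KLF12 probe set read, the difference was -0.04 ± 0.08 (SE).

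Of 13 measured cofactors of KLF proteins, 1 rose and 1 fell, beside 14.1% higher and 16.3% lower of all genes, and the median difference was 0.07. The number that rose was 2 without mimic replicate 1, and 0 without mimic replicate 2, mimic replicate 3 or control replicate 3. CTBP2, the corepressor that KLF3 recruits, read 11.77, 11.84 and 11.94 in mimic arrays against 12.50, 12.55 and 12.45 in control arrays. It fell by 0.65 on the log2 scale (SE 0.07, limma adjusted p = 2.86e-05), and 5 of its 6 probe sets fell. KDM1A, a histone demethylase, rose by 0.30 ± 0.08 (SE, limma adjusted p = 0.0164), a call lost without mimic replicate 2 (0.0614), mimic replicate 3 (0.0519) or control replicate 3 (0.0587). CTBP1 (-0.08), SIN3A (0.07) and SIN3B (0.17) did not pass.

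Of 8 ubiquitin ligases reported to act on KLF proteins, 4 rose and 2 fell, beside 14.1% higher and 16.3% lower of all genes, with a median difference of 0.22. SIAH1, a ligase reported for KLF10, was 1.58-fold higher (11.88 ± 0.09 in mimic and 11.21 ± 0.03 in control arrays, SD, n = 3 each, limma adjusted p = 2.07e-05), and all 3 of its probe sets rose. SMURF2 rose by 0.48 ± 0.07 and FBXO32 by 0.45 ± 0.08 (SE, limma adjusted p = 5.52e-04 and 0.00168). All 4 SMURF2 probe sets rose, and 4 of the 7 of FBXO32. SMURF1 rose too, by 0.29, on 3 of its 5 probe sets. FBXO22 and BTRC fell by 0.42 and 0.27, FBXO22 with 3 of its 5 probe sets lower and differences from -0.53 to 0.37, and BTRC with 1 of 5 lower and differences from -0.27 to 0.11. With probe sets averaged, 5 ligases were called higher, FBXO22 was the 1 ligase called lower, and the BTRC call was lost. WWP1 and FBXW7, ligases for KLF5, had differences of 0.15 and 0.13 and did not pass, though 1 of 2 WWP1 probe sets did (0.28).

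The ERK5 kinase cascade and its MEF2 factors switch on KLF2 and KLF4 in endothelial cells. Of the 7 genes of this cascade, 3 rose and 0 fell, beside 14.1% higher and 16.3% lower of all genes, with a median difference of 0.15. With 1 array left out, 2 or 3 rose, and with probe sets averaged 5 did. Over all alternatives, 1 to 5 rose and 0 fell. MAP3K2, a kinase at the top of the cascade, read 11.11, 11.25 and 11.31 in mimic arrays against 10.51, 10.51 and 10.37 in control arrays (1.69-fold higher, limma adjusted p = 1.68e-05). Its groups are separate, and 5 of its 7 probe sets rose. MEF2A rose by 0.39 ± 0.08 (SE, limma adjusted p = 0.00267) on 1 of its 4 probe sets, and by 0.18 with all 4 averaged (limma adjusted p = 0.0399). MAP3K3 rose by 0.23 ± 0.07 (SE, limma adjusted p = 0.0274), but the call was lost with arrays centred on their medians (0.0553) and without mimic replicate 2 (0.0711), mimic replicate 3 (0.0883), control replicate 1 (0.125) or control replicate 2 (0.0603). MAPK7, the gene of ERK5 itself, had a difference of 0.14 and did not pass, though 1 of its 2 probe sets did (0.21).

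TGF-beta induces KLF10 and KLF11 in many cells. Of 11 measured genes of the TGF-beta pathway, 6 rose and 1 fell, beside 14.1% higher and 16.3% lower of all genes, with a median difference of 0.38. Without mimic replicate 3, 2 fell. SKIL, a feedback repressor, averaged 11.13 ± 0.05 in mimic and 10.12 ± 0.05 in control arrays (SD, n = 3 each), 2.01-fold higher (limma adjusted p = 5.6e-07). The ligand gene TGFB1 was 1.98-fold higher (limma adjusted p = 1.66e-06) on 1 of its 2 probe sets, and the inhibitor SMAD7, which KLF10 is reported to repress, 1.75-fold higher (limma adjusted p = 3.3e-06). The receptor gene TGFBR2 fell, with 12.36 ± 0.09 in mimic and 13.33 ± 0.02 in control arrays (SD, n = 3 each, limma adjusted p = 1.14e-06), on both of its probe sets.

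The glucocorticoid receptor acts on KLF9 directly. Of 9 measured genes, 7 rose, 1 fell and 1 did not pass, beside 14.1% higher and 16.3% lower of all genes, with a median difference of 0.49. No gene of this list, or of the cofactor, ligase and TGF-beta lists, averaged below the median probe set level. At or above that level, 38.4% of all probe sets were called in either direction. Nothing is read from the shares of the lists, which were chosen with earlier results of these data known. NR3C1, which encodes the receptor, read 12.45, 12.49 and 12.62 in mimic arrays against 11.87, 11.84 and 11.78 in control arrays. The groups are well apart, 1.61-fold (limma adjusted p = 1.72e-05), and all 5 NR3C1 probe sets rose, by 0.66 to 0.78. The response genes TSC22D3 (GILZ, 1.59-fold), ERRFI1 (1.58-fold) and ZBTB16 (1.53-fold) were higher too (limma adjusted p = 1.71e-05, 1.18e-05 and 9.27e-05). TSC22D3 rose on 2 of its 3 probe sets, with differences from 0.11 to 0.77. FKBP5 rose by 0.49, DUSP1 by 0.44 (on 2 of its 3 probe sets) and SGK1 by 0.32. TFCP2L1 fell by 0.42, on 2 of its 3 probe sets, and CRISPLD2 had a difference of 0.05. The composition of the medium was not stated in the sources used here.

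Genes reported elsewhere as KLF targets moved both ways. Of 18 measured, 5 rose, 7 fell and 6 did not pass, beside 14.1% higher and 16.3% lower of all genes, with a median difference of -0.09. FGFBP1, a growth factor carrier reported as a KLF5 target, read 8.97, 9.11 and 9.01 in mimic arrays against 12.03, 11.96 and 11.86 in control arrays. It was 7.56-fold higher in the control (limma adjusted p = 8.89e-10), while KLF5 itself was not called. S1PR1, a lipid receptor activated by KLF2 in T cells, read 8.85, 8.99 and 8.90 in mimic arrays against 7.56, 7.59 and 7.79 in control arrays, 2.41-fold higher (limma adjusted p = 4.62e-07).

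Other KLF2 targets differed from S1PR1: THBD, the anticoagulant receptor thrombomodulin, fell by 0.73 with all 3 of its probe sets lower, and NOS3 had a difference of -0.01. PDGFA, a growth factor gene, averaged 7.91 ± 0.22 in mimic and 8.73 ± 0.03 in control arrays (SD, n = 3 each, limma adjusted p = 7.43e-05), on 1 of 2 probe sets. CDKN1A, the cell cycle inhibitor gene activated by KLF4 and KLF6, rose by 0.34 ± 0.06 (SE, limma adjusted p = 0.00205). The differentiation genes IVL and KRT4, both reported as KLF4 targets, fell by 0.27 and 0.60, KRT4 on 1 of its 2 probe sets. KLF8, SMAD7 and TGFBR1 stand in this list and in another above.

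**Figure D4:**
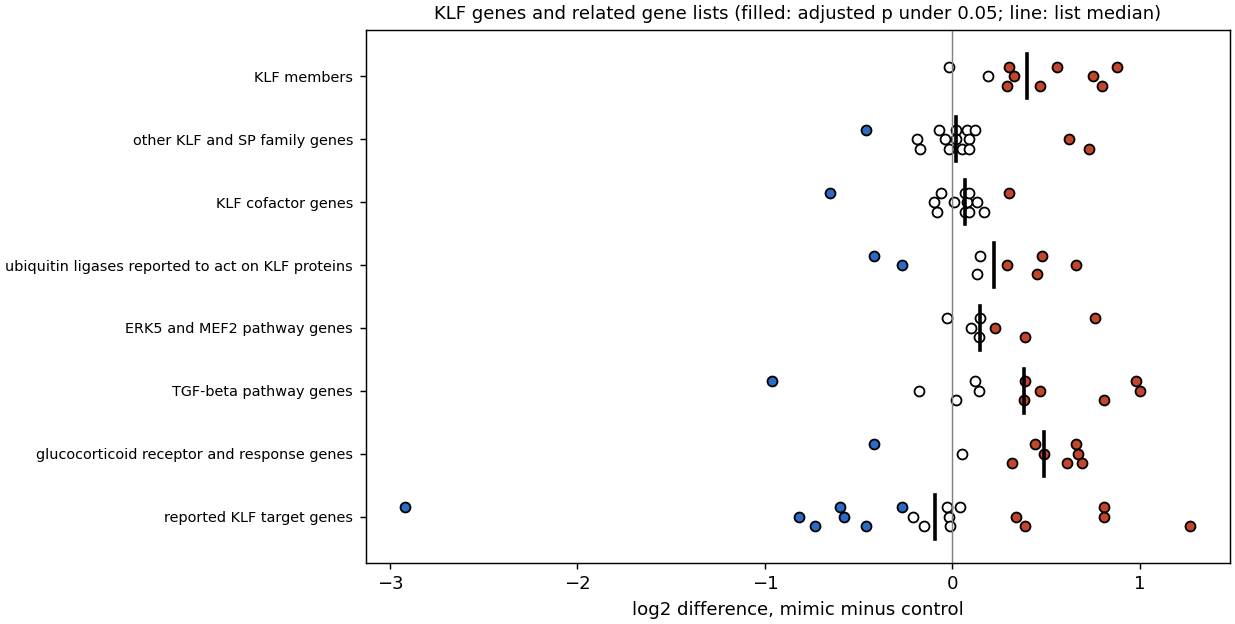
Log2 difference, mimic minus control, of each measured gene in the 10 KLF genes and in the 7 related lists, at each gene's brightest probe set. Filled points were called over the whole table and vertical lines are medians, which run from -0.09 for reported KLF targets to 0.49 for glucocorticoid genes.

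The genes whose values over the 6 arrays lay nearest to those of KLF7, by Euclidean distance after subtracting each control mean, were TSPAN13 (distance 0.085), NMRK1 (0.086) and MFHAS1 (0.0885), with differences of 0.88, 0.87 and 0.90. Nearest to KLF5, the member with the lowest difference, were TMEM187 (0.0243), LINC00102 (0.0398) and LMAN1 (0.0429). With 2 groups of 3 arrays, nearness mostly reflects the size of the difference and the spread within groups.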

How the data were processed

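The deposited values are log2 intensities per probe set, made by the authors with RMA (background correction, normalization across arrays and probe set summary), per the submitters' processing notes. Values of 3.67 to 14.95 fit a log2 scale, and no source used here states RMA's version or settings. RMA makes array distributions alike and compresses differences between dim values. After 62 control probe sets were left out, 54613 were tested. The platform annotation gave 41091 of them 1 symbol, 1801 several and 11721 none. Each gene was read at its brightest probe set, judged on the mean of the 6 arrays.

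Mimic was compared with control in limma 3.58.1 (R 4.3.3, lmFit and eBayes), with Benjamini-Hochberg adjustment over all probe sets and called below 0.05. Differences (mimic minus control) carry moderated SEs. In simulated data with 54613 probe sets and 200 changed, 57% of changes of 0.5 and 99% of changes of 1 (log2) were called, and 3.1% of calls were unchanged probe sets. Far fewer probe sets were changed there than the 13523 called in the arrays, so these rates need not hold for the real contrast. Tables and figures used Python 3.11.15, pandas 2.3.3, numpy 2.4.6 and matplotlib 3.10.9.

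The KLF members were chosen from the family on the mimic minus control differences of these data. The gene lists were chosen from general knowledge with earlier results of these data known. The text names all members, up to 4 called genes of each list with the largest differences, and for the members with the highest and lowest difference the 3 nearest genes. SP1, KLF12, CTBP1, SIN3A, SIN3B, SMURF1, BTRC, WWP1, FBXW7, MAPK7, FKBP5, DUSP1, SGK1, TFCP2L1, CRISPLD2, THBD, NOS3, CDKN1A, IVL, KRT4, TGFBR1 and the cell type markers were named after their values were seen. List genes without a probe set of their own were not analysed here. Alternatives left out the dimmest 40% of probe sets, repeated quantile normalization, centred arrays on medians, fitted a trended and robust eBayes, weighted the arrays, blocked on the replicate number, left out each array, averaged probe sets, changed the threshold, or removed a loess trend (span 0.3). The number of arrays limits the precision.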

Additional observations from a re-analysis of the deposited data

How the results depend on the processing

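Of 170 values of the 10 KLF genes under 17 alternatives, 163 stayed on the same side of the threshold, and no called value changed sign. KLF5, which was not called, had a difference of -0.02, which became 0.05 after quantile normalization again, 0.03 with the loess trend removed and 0.01 without control replicate 1. The values that crossed the threshold were those of 5 genes that fell short of a 1.5-fold minimum (KLF3, KLF9, KLF10, KLF11 and KLF13), KLF13 with all its probe sets averaged (0.07), and KLF2, which passed at an unadjusted p. With the 1.5-fold minimum, by construction fewer passed: 3 KLF genes, 20 list entries against 41, and 3590 probe sets against 13523. A gene that stands in more than 1 list counts as an entry in each. The median difference of the 10 genes was 0.46 after quantile normalization again, against 0.40, and the cause was not tested. With probe sets averaged the median was 0.33. KLF7, KLF9 and KLF13 then differed by 0.63, 0.21 and 0.07, against 0.88, 0.47 and 0.30 at their brightest probe sets. KLF4, KLF6 and KLF11 were slightly higher when averaged, at 0.81, 0.76 and 0.36. Leaving out 1 array at a time gave 8 called KLF genes each time, medians of 0.38 to 0.44, 39 to 42 list entries and 10266 to 13314 probe sets. Same-numbered arrays did not deviate together (correlations of -0.107, 0.084 and 0.082), and with the replicate number as a block 8 KLF genes and 13372 probe sets were called. Probe sets called higher numbered 9576 with array weights and 3828 at an adjusted p under 0.01, against 6343. The dim probe sets of KLF9 and KLF13 were not called, and whether they lie above background is not known. The 1 called member probe set below the median level was one of KLF7, with means of 7.5 in mimic and 7.15 in control arrays. Whether it lies above background is not known either.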

Other observations

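Transcripts that neighbour KLF genes were also on the array. KLF3-AS1, an antisense RNA of the KLF3 locus, differed by 0.12 ± 0.08 and 0.10 ± 0.07 (SE) on its 2 probe sets and did not pass (limma adjusted p = 0.335 and 0.359), beside differences of 0.34 to 0.60 at the 4 KLF3 probe sets. KLF9-DT, transcribed divergently from KLF9, read 7.16, 7.17 and 7.13 in mimic arrays against 7.09, 7.14 and 7.17 in control arrays and did not pass (limma adjusted p = 0.863). These probe sets have values below the median probe set level, and whether they lie above background is not known.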
